A study of Mus musculus with 24 samples.

Results

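The 10 genes described here encode heat shock proteins, their partners and the factor that switches them on: Hspa1a, Hspa1b, Hspb1, Hspb7, Cryab, Hsp90aa1, Hsph1, Dnajb1, Bag3 and Hsf1. They were taken by symbol from the 24537 genes of the count table, and all 10 were found once and passed the filter on low counts. The RNA came from whole extensor digitorum longus (EDL) and soleus (SOL) muscles of 2-month-old mice. Cre+ mice were Acta1-Cre+/4Fhet and Cre- mice were Acta1-Cre-/4Fhet, and all of them drank water with 1 mg/ml doxycycline (Dox), until 2.5 days, 5.5 days or 8.5 days had passed. The study induced the 4 reprogramming factors Oct4, Sox2, Klf4 and c-Myc (OSKM) in myofibers, and each muscle, genotype and time point had 2 libraries, 24 in all. The study calls its 2 samples a group independent for 2.5 and 8.5 days, and whether the EDL and SOL libraries of a number share a mouse is not stated. The control mice thus carry the Dox-driven OSKM cassette and the silent rtTA transactivator as well, and also received Dox. Acta1-Cre opens the rtTA only in skeletal myofibers, while vessels, blood, connective tissue and satellite cells are also in the RNA.

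Chaperones bind unfolded protein, keep it from clumping and help it fold or be removed. In striated muscle the small heat shock proteins and the Bag3 complex look after sarcomere proteins that are stretched and worn by contraction, and slow, oxidative fibers are known for a high content of several of them. Hsf1 is the main transcription factor of the heat shock response. It binds heat shock elements, which are inverted repeats of a short unit, and drives the stress-inducible HSP70 genes most strongly of all.

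Promoter sequences from RefSeq (build GRCm38.p6) were at hand for 7 of the 10 genes, namely Hspa1a, Hspa1b, Hspb1, Hspb7, Hsph1, Dnajb1 and Bag3. Hspa1a, Hspa1b, Hspb1 and Hsph1 are shown because they carry letters of the heat shock element before the transcript start. The sequences of Hspa1a and Hspa1b also differ very little. Dnajb1 and Bag3 held none of these letters before the start and are not shown. Capitals mark each GAANNTTC or TTCNNGAA, the smallest inverted pairs of the heat shock unit. Each line runs 5′ to 3′ on the gene's own strand and lies before the listed transcript start. Hspb7 is shown as a window without the letters.

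Hspa1a, chr17:34972157-34972306, minus strand: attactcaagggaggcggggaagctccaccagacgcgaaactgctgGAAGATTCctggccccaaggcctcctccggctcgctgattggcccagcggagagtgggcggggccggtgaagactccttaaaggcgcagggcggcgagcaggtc

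Hspa1b, chr17:34959239-34959388, minus strand: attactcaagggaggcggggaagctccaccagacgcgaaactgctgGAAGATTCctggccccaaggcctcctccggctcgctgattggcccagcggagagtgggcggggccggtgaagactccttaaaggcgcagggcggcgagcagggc

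Hspb1, chr5:135887769-135887868, plus strand: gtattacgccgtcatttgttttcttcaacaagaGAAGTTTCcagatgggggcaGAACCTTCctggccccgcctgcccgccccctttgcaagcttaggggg

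Hsph1, chr5:149636337-149636436, minus strand: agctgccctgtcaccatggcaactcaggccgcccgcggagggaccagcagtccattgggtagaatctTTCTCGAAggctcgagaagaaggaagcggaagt

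Hspb7, chr4:141420679-141420778, plus strand: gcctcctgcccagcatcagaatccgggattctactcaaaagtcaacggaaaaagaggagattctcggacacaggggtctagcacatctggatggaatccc

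Both letter strings read the same on either strand. In windows of 300 bases, from 250 before to 50 after the transcript start, at least one of them was found in 5 of the 7 genes and in 15.1% of the 32851 RefSeq windows of the same length. Hspb1 held 2 of them, which begin 117 and 97 bases before the start. Hspa1a and Hspa1b held 1 each, at the same distance of 104 bases. Hsph1 held 1 that begins 33 bases before the most upstream listed start, and a run of 3 alternating units inside the transcript, which begins 36 bases after it and in which 2 pairs overlap. Such a run, starting with either unit and on either strand, was found in 0.603% of all windows. The match in Bag3 also lay inside the transcript, and the windows of Hspb7 and Dnajb1 held none of these letters, which says nothing of other forms of the element. A match of letters is a description and not evidence of binding.

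**Figure D1:**
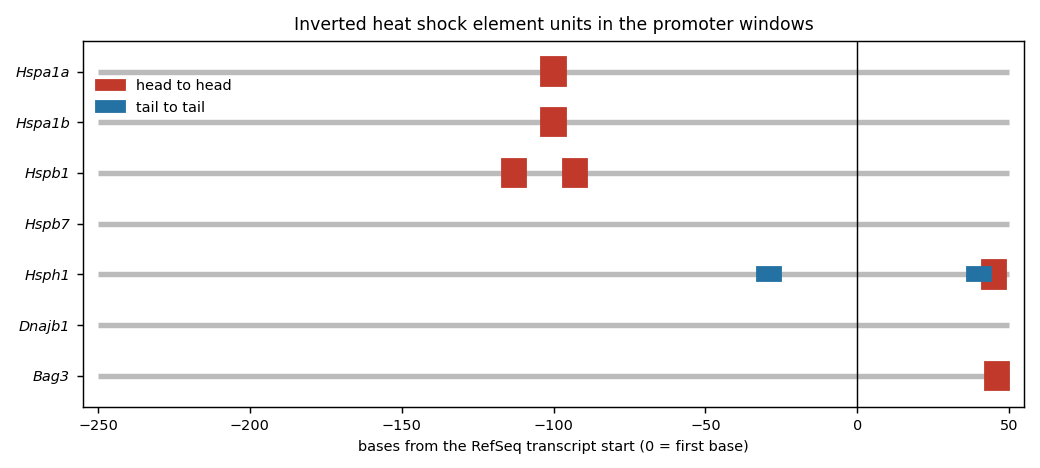
Position of inverted heat shock units (red, head to head, GAANNTTC in the text; blue, tail to tail, TTCNNGAA) in the promoter windows of 7 genes, as distance in bases from the most upstream RefSeq transcript start (vertical line). Hspa1a, Hspa1b, Hspb1 and Hsph1 hold a pair before the start, Hsph1 and Bag3 after it, and Hspb7 and Dnajb1 none.

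Library totals were between 36088781 and 54679082 counts. Slow fiber genes (9 of 9) were lower and fast fiber genes (9 of 9) higher in EDL than in SOL muscles of Cre- mice. Transcripts of Pou5f1, the gene for Oct4, were at most 0.0896 FPKM in the 12 Cre- libraries, between 17.5 and 76.2 FPKM in Cre+ EDL at 2.5 and 8.5 days and between 5.02 and 12.2 FPKM in Cre+ SOL at these times. At 5.5 days they were 1.02 and 27.7 FPKM in Cre+ EDL and 0.0785 and 0.387 FPKM in Cre+ SOL, so that these Cre+ libraries differed in induction from those of the other times. The summed level of 8 liver transcripts was 49.7 and 135.6 FPKM in the SOL libraries of Cre- mice at 8.5 days and at most 20.6 FPKM in the other 22, so that the muscle difference is also given without them. FPKM is the count per kilobase of exon scaled to the total count of the library, and levels of different genes are compared on this scale only.

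The most abundant member was Cryab, the small heat shock protein alpha-B-crystallin. In Cre- EDL muscles its level was 533 FPKM in the lowest, 581 in the median and 683 in the highest of 6 libraries. In Cre- SOL muscles the corresponding values were 2064, 2740 and 3878 FPKM, which placed Cryab 22nd of 24537 genes by mean level. Hspb7, a small heat shock protein of heart and skeletal muscle, followed in SOL with 1043, 1191 and 1574 FPKM. In EDL it was at 96.3, 157 and 226 FPKM. The lowest SOL library of either gene was above the highest EDL library, a pattern shared by 4 further members. How many of all genes show this pattern was not counted, so it only describes these genes.

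Hspb1 (HSP25, an actin-binding small heat shock protein) was at 56.6, 68.6 and 92.3 FPKM in Cre- EDL and at 190, 217 and 279 FPKM in Cre- SOL. Bag3, which couples HSP70 to the small heat shock proteins and to autophagy, was at 34.7, 47.4 and 51.1 FPKM in EDL and at 107, 129 and 139 FPKM in SOL. The stress-inducible HSP70 genes were far less abundant than these. Hspa1a was at 0.769, 1.15 and 1.65 FPKM in Cre- EDL and at 7.09, 8.69 and 13.7 FPKM in Cre- SOL. Hspa1b was at 0.406, 0.677 and 1.29 FPKM in EDL and at 2.77, 4.16 and 6.07 FPKM in SOL. In each of these 4 genes, too, the muscles did not overlap. The counts behind the HSP70 values were low in EDL, from 92 to 209 for Hspa1a and from 52 to 150 for Hspa1b.

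The other 4 members overlapped between the muscles. Hsf1 was at 18.4, 19.6 and 21.3 FPKM in Cre- EDL and at 20.7, 24.2 and 25.6 FPKM in Cre- SOL. Hsph1 (HSP110, which resets HSP70 by nucleotide exchange) was at 10.9, 13.9 and 19.2 FPKM in EDL and at 11.9, 13.3 and 20.9 FPKM in SOL. Hsp90aa1, the inducible cytosolic HSP90, was at 6.24, 6.91 and 9.71 FPKM in EDL and at 7.06, 7.69 and 13.5 FPKM in SOL. Dnajb1 (HSP40, which hands substrates to HSP70) was at 3.65, 4.47 and 6.58 FPKM in EDL and at 4.5, 5.41 and 7.07 FPKM in SOL. By the median, Hspa1a and Hspa1b were the least abundant members in EDL muscles. In SOL muscles Hspa1b had the lowest median, with a range that overlapped that of Dnajb1, and the ranges of Hspa1a and Hsph1 overlapped. Reads from stretches that Hspa1a and Hspa1b share were not counted, while FPKM used the full exon length. The levels of both genes can thus be too low, and their rank among the members in SOL is uncertain.

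**Figure D2:**
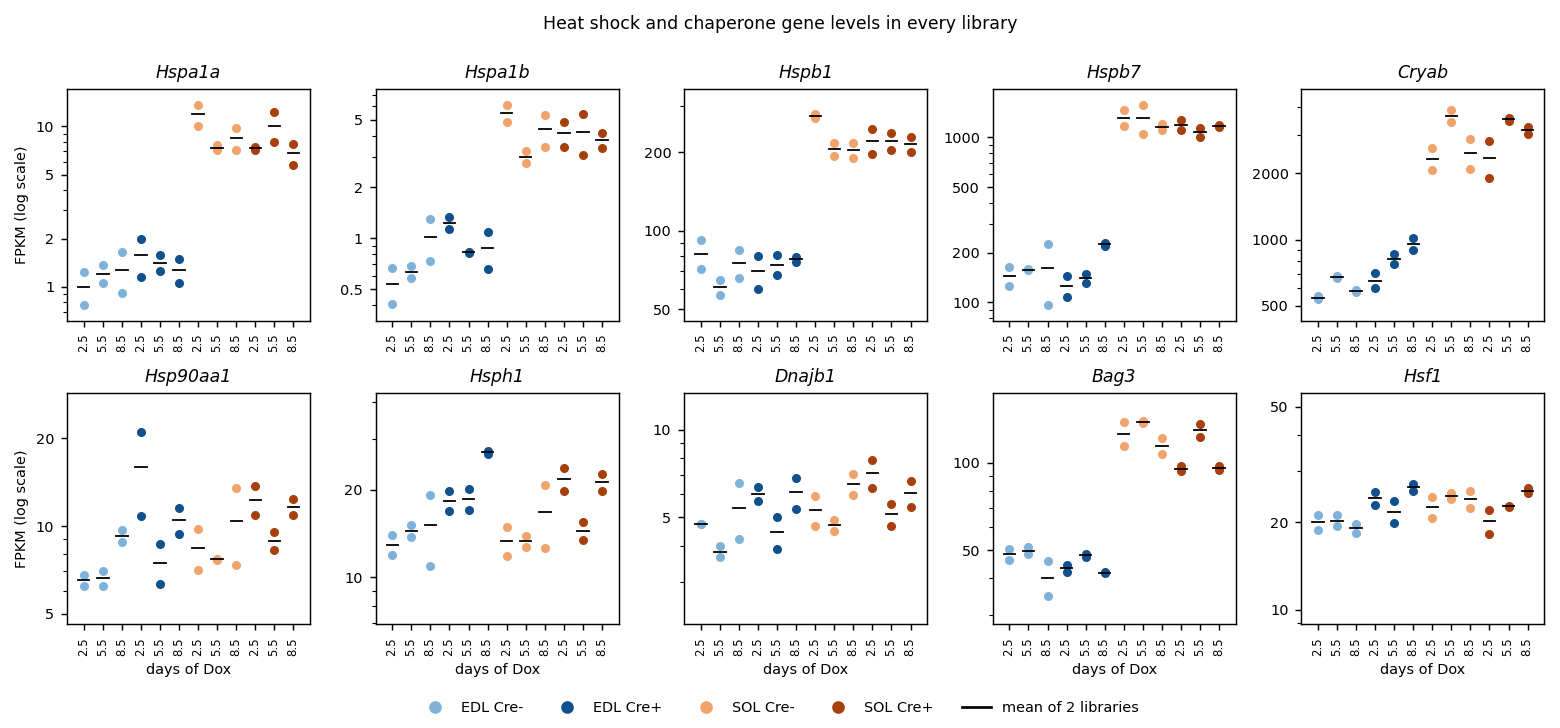
Level of the 10 genes in all 24 libraries (FPKM, log axis; each point is 1 library, bars are means of 2), by muscle, genotype and days of Dox. In the 6 genes Hspa1a, Hspa1b, Hspb1, Hspb7, Cryab and Bag3 all 12 SOL libraries lie above all 12 EDL libraries, while Hsp90aa1, Hsph1, Dnajb1 and Hsf1 overlap.

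The Cre- mice answer how these genes differ between a fast and a slow muscle without OSKM. Of the 10 genes, 6 were lower in EDL than in SOL muscles of Cre- mice and 0 were higher, by edgeR's quasi-likelihood test (adjusted p under 0.05 over all genes and an absolute log2 difference above 0.5, the rule behind every call below). At an unadjusted p under 0.05 there were 7, and DESeq2 called 6. Over all 15478 genes tested, 13.3% were called lower and 11.6% higher in EDL. The median log2 difference of the 10 genes was -1.46, and that of all genes was -0.02. The 10 genes were chosen with earlier results of these data known, so their contrast with all genes is a description. Hspb7 was 7.75-fold lower in EDL (log2 -2.95, SE 0.17, adjusted p = 7.07e-10) and Hspa1a was 7.32-fold lower (log2 -2.87, SE 0.20). Hspa1b was 5.59-fold, Cryab 4.37-fold, Hspb1 2.94-fold and Bag3 2.57-fold lower, each with 6 libraries a muscle.

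The 4 members without a call differed little. Hsf1 was lower in EDL by 0.18 on the log2 scale (adjusted p = 0.0491), under the threshold on size. The 95% interval of the log2 difference was -0.48 to 0.15 for Hsp90aa1, -0.40 to 0.09 for Dnajb1 and -0.21 to 0.34 for Hsph1. So the members with the highest muscle difference were 3 small heat shock proteins, the HSP70 pair and Bag3. On the FPKM scale, Hsf1 itself was higher in SOL in 6 of 6 Cre- pairs of libraries, by 1.10-fold to 1.31-fold. It was higher in 1 of 6 Cre+ pairs, a count that depends on scaling. TMM scaling sets the bulk of genes level between libraries. After it, SOL was also above EDL in both Cre+ pairs of 8.5 days (24.4 against 23.6 and 24.8 against 23.9 FPKM). Both Cre+ pairs of 2.5 days and the second of 5.5 days stayed below. The second Cre- pair of 2.5 days was nearly level, at 20.5 FPKM in each muscle.

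EDL and SOL libraries of the same number deviated together, and the ratios of their FPKM are given here as pairs. The tests above did not use the pairs. With the pairs as a replicate block 6 members were called as well. In the 6 pairs of Cre- mice the SOL level was above the EDL level 5.18-fold to 13.1-fold for Hspa1a, 4.05-fold to 12-fold for Hspa1b and 4.91-fold to 12.6-fold for Hspb7. The ratio was 3.58-fold to 5.79-fold for Cryab, 2.58-fold to 3.92-fold for Hspb1 and 2.26-fold to 3.08-fold for Bag3. The ratio of the mean levels of Hspa1a was 11.8 at 2.5 days, 6.08 at 5.5 days and 6.57 at 8.5 days, each from 2 pairs, and that of Hspb7 was between 7.20 and 9.14. Whether the muscle difference varied with the day was not tested. Without all Cre- libraries of 8.5 days, and with them the SOL libraries that hold liver transcripts, the same 6 genes were called, with log2 differences from -3.04 for Hspb7 to -1.33 for Bag3.

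In Cre+ mice these 6 genes were again called lower in EDL at 2.5 days and at 8.5 days, where 12.8% and 9.07% of all genes were. Hspb7 was lower by 3.34 on the log2 scale at 2.5 days and by 2.44 at 8.5 days, and Hspa1b, the HSP70 gene with the smaller difference, by 1.83 and 2.19. The differences in Cre+ and Cre- mice rest on separate libraries.

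**Figure D3:**
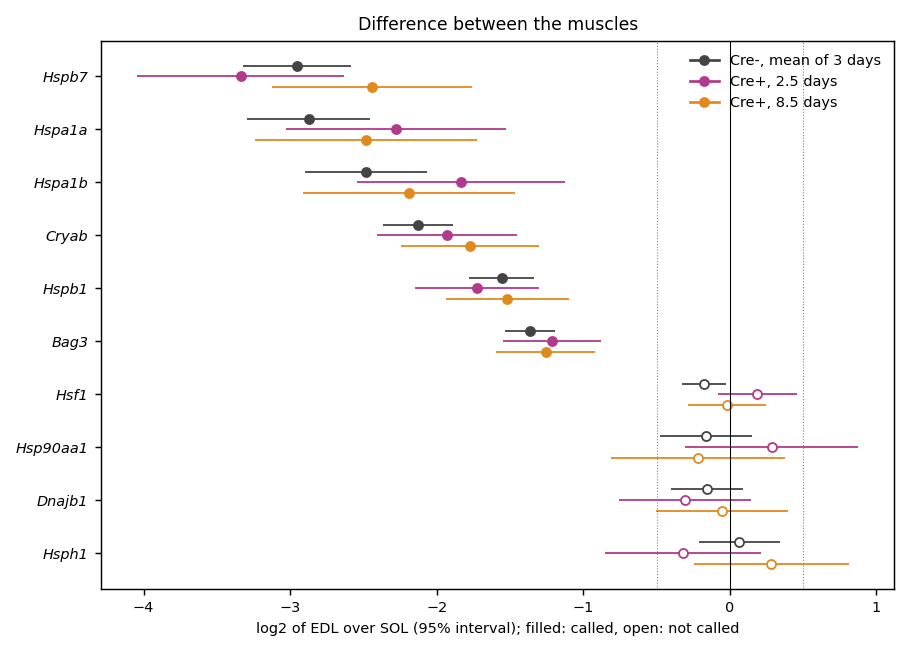
Log2 difference of EDL over SOL muscles with its 95% interval for the 10 genes, in Cre- mice (mean of 3 time points) and in Cre+ mice at 2.5 and 8.5 days; filled points were called, and dotted lines mark the threshold of 0.5. The 6 genes from Hspb7 (-2.95 in Cre-) to Bag3 (-1.36) lie left of the threshold in all 3 comparisons, and Hsf1, Hsp90aa1, Dnajb1 and Hsph1 lie around 0.

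Immediate early genes answer handling and contraction of muscle within minutes. Of 12 such genes, 5 were lower in EDL of Cre- mice (Fos by 1.5, Fosb by 0.80, Egr1 by 1.77, Ier2 by 0.67 and Atf3 by 1.73 on the log2 scale) 1, Nr4a1, was higher, and 6 were not called, where 13.3% of all genes were lower and 11.6% higher. Their summed level ranged from 174 to 270 FPKM in Cre- EDL and from 154 to 269 FPKM in Cre- SOL, with overlap. The sum gives most weight to Nr4a1 and Dusp1, with means of 88.0 and 51.7 FPKM over all libraries. Gene by gene, 10 of the 12 had a log2 difference below 0 and 2 above. Among other cell types, 1 of 8 endothelial and 3 of 6 satellite cell markers were lower, and 5 of 5 erythroid genes were higher in EDL. Their part in the difference was not tested. Fewer fibers or cells of a type and less RNA per cell cannot be told apart in bulk muscle.

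Hspa1a and Hspa1b are neighboring genes on chromosome 17 (34969359 to 34972156 and 34956429 to 34959238, both on the minus strand), 10120 bases apart. Their promoter windows were the same at 296 of 300 positions. Of all windows of 50 bases in the Hspa1a transcript, 58.8% also occur in the Hspa1b transcript, and 62.3% the other way around. Only uniquely aligned reads were counted, so that reads from such stretches are not in the counts, and how the rest divides between the 2 genes is uncertain. FPKM still used the full exon length, so that the levels of both genes can be too low beside those of other genes. Across the 24 libraries their log2(FPKM + 1) values had a Pearson correlation of 0.98, which includes the difference between the muscles. Within 12 libraries of one muscle it was 0.80 in EDL and 0.81 in SOL.

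The next question is what OSKM induction did to these genes. In EDL muscles after 2.5 days of Dox, 1 of the 10 genes was higher in Cre+ than in Cre- mice and 1 was lower, where 13.8% of 15372 genes were called higher and 10.2% lower. Hsp90aa1 was at 10.8 and 21.1 FPKM in Cre+ and at 6.81 and 6.24 FPKM in Cre- EDL. Both Cre+ libraries were above both Cre- libraries, and the difference was 1.93-fold (log2 0.95, SE 0.28, adjusted p = 0.0225). With 2 libraries against 2, such a lack of overlap often arises by chance. How many of all genes show it was not counted, so that here and below it only describes the values. The higher value was that of the second Cre+ library. It also held more OSKM transcript (a summed 261 FPKM of the 4 factors, against 74.5 in the other), and a link was not tested. Without that library the log2 difference was 0.45 with an adjusted p of 0.322. The call was also lost without either Cre- library, at log2 differences of 0.99 and 0.91. In the same comparison the summed level of 12 immediate early genes was 148 to 168 FPKM in Cre+ and 210 to 233 FPKM in Cre-, and that of 9 fast fiber genes was 50879 to 61209 FPKM in Cre+ and 82521 to 91978 FPKM in Cre-. Neither overlapped, and their part in the members' values was not tested. Gene by gene, 8 of the 12 immediate early genes had a log2 difference below 0 and 4 above, from -1.33 to 2.15.

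Hspb1 was at 79.8 and 60.1 FPKM in Cre+ and at 71.1 and 92.3 FPKM in Cre- EDL at 2.5 days, and the groups overlapped on this scale. After TMM scaling, which sets the bulk of genes level between libraries, it was lower in Cre+ by 0.55 on the log2 scale (SE 0.19, adjusted p = 0.0478). With scaling by the total count alone the difference was -0.22 with an adjusted p of 0.373, without the second Cre+ library it was -0.32 with an adjusted p of 0.370, and without the second Cre- library it was -0.32 with an adjusted p of 0.345. This scaling also moved the median of all genes in EDL at 2.5 days from -0.05 to 0.28, and the calls over all genes from 2118 higher and 1566 lower to 4206 higher and 610 lower. At 8.5 days it moved 1173 higher and 999 lower to 1956 higher and 542 lower.

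Bag3 was at 44.4 and 42.2 FPKM in Cre+ and at 46.3 and 50.4 FPKM in Cre- EDL at 2.5 days. The groups did not overlap, and its log2 difference of -0.49 (adjusted p = 0.0313) was just under the size threshold. Without the first Cre+ library it was -0.57 (adjusted p = 0.0437) and called. Hspa1b was at 1.33 and 1.13 FPKM in Cre+ and at 0.669 and 0.406 FPKM in Cre- EDL, again without overlap, with a log2 difference of 0.87 (SE 0.35, adjusted p = 0.0801). DESeq2 on the same libraries called it (0.89, adjusted p = 0.0436), as did edgeR with library size alone (1.19, adjusted p = 0.0194). Its near copy Hspa1a overlapped, at 1.98 and 1.15 FPKM against 1.24 and 0.769 FPKM, with a log2 difference of 0.33 (95% interval -0.43 to 1.10). Hspb7 was at 107 and 143 FPKM against 164 and 125 FPKM, with overlap and a log2 difference of -0.54 (95% interval -1.19 to 0.11). Cryab, Hsph1, Dnajb1 and Hsf1 had log2 differences from -0.07 to 0.17.

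After 8.5 days of Dox, 0 of the 10 genes were called in EDL by edgeR, where 7.63% of all genes were called higher and 6.5% lower. At an unadjusted p under 0.05 there were 3, Cryab, Hsph1 and Hsf1, and DESeq2 on the same libraries called 1, Cryab. Cryab was at 898 and 1018 FPKM in Cre+ and at 588 and 575 FPKM in Cre- EDL, without overlap, at a log2 difference of 0.55 (SE 0.21, adjusted p = 0.104). Hsph1 was at 26.6 and 27.2 FPKM in Cre+ and at 10.9 and 19.2 FPKM in Cre- EDL, also without overlap, at a log2 difference of 0.65 (SE 0.25, adjusted p = 0.095). Without the second Cre- library the log2 difference of Hsph1 was 1.13. In that library Hspa1a, Hspa1b, Hspb1, Hsph1, Dnajb1, Bag3 and Hsf1 were above the first Cre- library, and Hspb7, Cryab and Hsp90aa1 were below it.

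Hsf1 was at 27.1 and 25.7 FPKM in Cre+ and at 18.4 and 19.8 FPKM in Cre- EDL at 8.5 days, with a log2 difference of 0.29 (SE 0.12, adjusted p = 0.141). Hspb7 was at 220 and 230 FPKM in Cre+, and its Cre- libraries were the highest and the lowest of the 6 Cre- EDL libraries, at 226 and 96.3 FPKM. Its log2 difference was 0.31 (95% interval -0.34 to 0.95), and without the first Cre- library it was 1.03 (adjusted p = 0.0236) and called. Hsp90aa1 was at 11.6 and 9.37 FPKM in Cre+ and at 9.71 and 8.78 FPKM in Cre-, a log2 difference of -0.00 after scaling. The change of Hsp90aa1 at 8.5 days minus that at 2.5 days was -0.95 on the log2 scale (unadjusted p = 0.0296, adjusted p = 0.457), and 0 of the 10 genes were called for a difference between these times in EDL, with 2 at an unadjusted p under 0.05 and 0 by DESeq2. Over all genes the test called 0%, DESeq2 called 144 genes, and 1469 had an unadjusted p under 0.05.

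In SOL muscles 0 of the 10 genes were called at 2.5 days, where 0.384% of all genes were, and 0 at 8.5 days, where 0.631% were. At 2.5 days 5 of the 10 had an unadjusted p under 0.05, and DESeq2 called 1 of them when given all 16 libraries and 3 when given only the 4 compared. Bag3 was at 93.1 and 97.5 FPKM in Cre+ and at 137 and 114 FPKM in Cre- SOL at 2.5 days. These did not overlap, and the log2 difference was -0.55 (SE 0.15, adjusted p = 0.152; -0.57 and adjusted p = 0.0189 by DESeq2). Hspa1a was at 7.47 and 7.12 FPKM in Cre+ and at 13.7 and 10.1 FPKM in Cre- SOL, a log2 difference of -0.86 (adjusted p = 0.271). Hsph1 was at 23.7 and 19.7 FPKM in Cre+ and at 11.9 and 14.8 FPKM in Cre- SOL, a log2 difference of 0.55 (adjusted p = 0.361). The pair of members with the closest match across SOL libraries was Hsp90aa1 and Hsph1, with a Pearson correlation of 0.97 over 12 libraries that share muscle and scaling. This pair was picked after seeing the values, and its correlation was 0.43 over the 12 EDL libraries and 0.60 over all 24.

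At 8.5 days the log2 differences in SOL lay between -0.34 for Hspa1a and 0.32 for Hsph1, and 0 of the 10 had an unadjusted p under 0.05 or a DESeq2 call. The Cre- libraries of this comparison are the pair with liver transcripts. Between the times, 0 of the 10 genes were called for a difference of the SOL change by edgeR, 0 by DESeq2, and 1 had an unadjusted p under 0.05. Over all genes edgeR called 0% and DESeq2 9 genes, and 403 had an unadjusted p under 0.05. The 5.5-day libraries, in which Cre+ mice held little OSKM transcript in SOL and unequal amounts in EDL, gave 0 called members in either muscle, with 0.304% of 15478 genes called in EDL and 0% in SOL. There 0 of the 10 had an unadjusted p under 0.05 in either muscle and 0 were called by DESeq2 on the same libraries. Over all genes 597 had an unadjusted p under 0.05 in SOL at 5.5 days, and DESeq2 called 0.

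**Figure D4:**
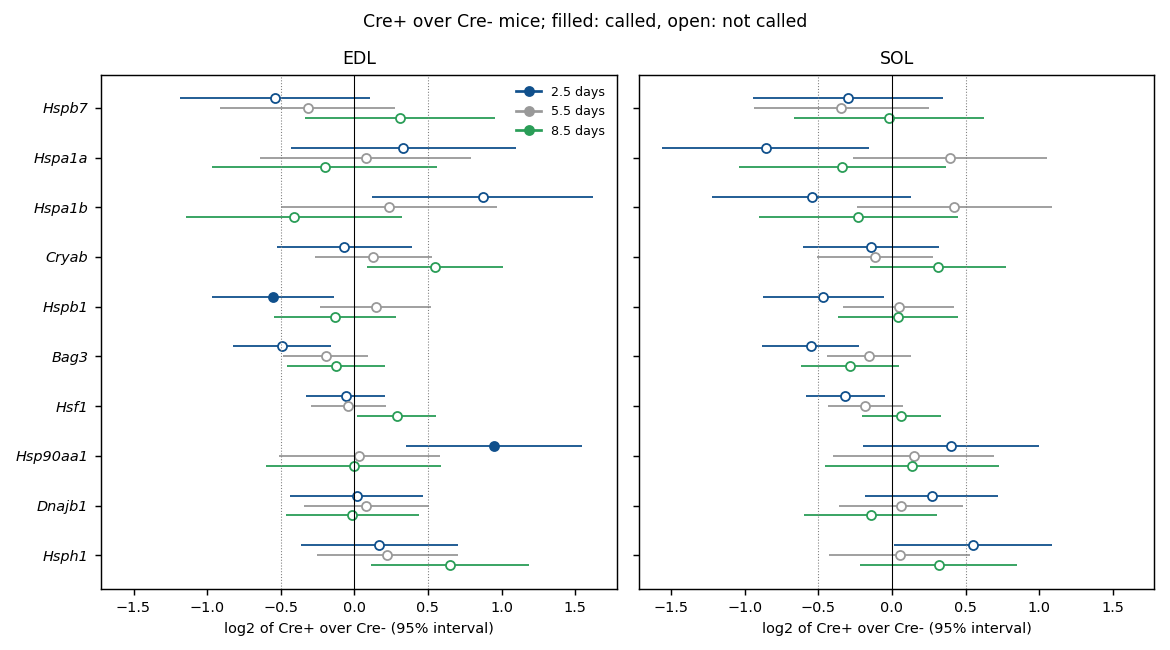
Log2 difference of Cre+ over Cre- muscles with its 95% interval for the 10 genes after 2.5, 5.5 and 8.5 days of Dox, in EDL (left) and SOL (right); filled points were called, open points were not, and dotted lines mark 0.5. The only filled points are Hsp90aa1 (0.95) and Hspb1 (-0.55) in EDL at 2.5 days.

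Whether OSKM acted differently in the muscles was tested as the EDL change minus the SOL change. At 2.5 days 0 of the 10 genes passed, where 4.25% of all genes did, and 2 had an unadjusted p under 0.05. The larger was Hspa1b, with a log2 change of 0.87 in EDL and -0.55 in SOL and a difference of 1.42 (SE 0.47, adjusted p = 0.105). With EDL and SOL libraries of one number as a replicate block, the difference was 1.45 with an adjusted p of 0.0313, so that Hspa1b was called, as it was by DESeq2 (1.46, adjusted p = 0.03). Hspa1a had a difference of 1.19 (adjusted p = 0.176). At 8.5 days the difference was between -0.18 and 0.33 in all members and 0 were called by edgeR or DESeq2 or had an unadjusted p under 0.05, with 0.592% of all genes called.

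The Cre- mice of the 3 time points also served to see how far these genes vary without OSKM. In Cre- SOL muscles 1 of the 10 genes, Cryab, differed between the days (adjusted p = 0.0196, edgeR's F test), where 12.4% of all genes did. It was at 2604 and 2064 FPKM at 2.5 days, at 3443 and 3878 FPKM at 5.5 days and at 2102 and 2875 FPKM at 8.5 days. The call was lost without any one of 3 libraries (adjusted p from 0.0555 to 0.145), both of 5.5 days and 1 of 2.5 days. In Cre- EDL muscles 0 of the 10 differed, where 7.43% of all genes did, and 1, Bag3, had an unadjusted p under 0.05. Without the second Cre- EDL library of 8.5 days Bag3 was called (adjusted p = 0.0192). Whether the days were also separate dissections is not stated, and day and session cannot be told apart.

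The wider chaperone network was followed in 10 lists with 105 genes, of which 99 were tested. In EDL muscles 15 of them were higher and 9 lower in Cre+ at 2.5 days, and 19 were higher and 6 lower at 8.5 days. At 2.5 days these were 15.2% and 9.09% of the genes tested, near the 13.8% and 10.2% of all genes, so that the count says nothing particular of chaperones. At 8.5 days they were 19.2% and 6.06%, beside 7.63% and 6.5% of all genes. The same shares of all genes are the background of the counts by list for OSKM in EDL below. With library size alone 37 were higher and 6 lower at 2.5 days, and 26 and 3 at 8.5 days. Of all 15372 genes this scaling called 4206 higher and 610 lower at 2.5 days, and 1956 and 542 at 8.5 days. These, and not the shares above, are the background of the counts with library size alone. For counts with a library left out, here and by list below, the share of all genes is not given, so they are descriptive. Without the second Cre+ library 9 were higher and 6 lower at 2.5 days, and at 8.5 days 6 were higher without either Cre+ library (2 and 7 lower) and 8 without the first Cre- library (2 lower). In SOL muscles edgeR called 0 at either time, with 20 and 3 genes at an unadjusted p under 0.05 and 2 and 0 called by DESeq2.

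Chaperones of the endoplasmic reticulum, which fold secreted and membrane proteins, gave most of the higher genes. Of 16 tested, 8 were higher at 2.5 days and 11 at 8.5 days in Cre+ EDL, and 0 were lower, with median log2 differences of 0.50 and 0.59, where 13.8% and 7.63% of all genes were higher. The summed level of 7 fibroblast markers, genes of a secretory cell type, was 1262 to 2361 FPKM in Cre+ and 1553 to 1751 FPKM in Cre- EDL at 2.5 days, with overlap, and 1975 to 2809 FPKM against 1490 to 1712 FPKM at 8.5 days, without overlap. Of these markers 0 were called at either time by edgeR and 0 had an unadjusted p under 0.05, and their part was not tested. Pdia6, a disulfide isomerase, was at 65.0 and 93.2 FPKM in Cre+ and 27.2 and 28.9 FPKM in Cre- EDL at 2.5 days (log2 1.16, SE 0.15, adjusted p = 0.000188), and its log2 difference at 8.5 days was 1.00. Calr, the calcium-binding lectin calreticulin, was at 196 and 225 FPKM against 94.5 and 95.2 FPKM (log2 0.82, then 0.70). Canx, its membrane-bound relative calnexin, had 0.95 and 0.80, and Sdf2l1 had 1.48 and 0.99. Of the other abundant members, Hspa5 (BiP) was higher at 8.5 days only by call (0.69, against 0.36 at 2.5 days) and P4hb was not called (0.41 and 0.46). With 1 library left out, between 5 and 10 genes of the list were called at 2.5 days and between 4 and 12 at 8.5 days.

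Of the cytosolic HSP90 genes, Hsp90ab1, the constitutive form, was far more abundant than Hsp90aa1 and was at 745 and 869 FPKM in Cre+ and 332 and 358 FPKM in Cre- EDL at 2.5 days. Its log2 difference was 0.89 (SE 0.22, adjusted p = 0.00906) at 2.5 days and 0.75 (adjusted p = 0.0345) at 8.5 days. With 1 library left out, between 0 and 2 of the 2 HSP90 genes were called at 2.5 days and between 0 and 1 at 8.5 days. Among its 13 co-chaperones 1 was higher and 3 were lower at 2.5 days. Ahsa2, a homolog of the HSP90 ATPase activator, was at 34.2 and 78.9 FPKM against 7.70 and 8.0 FPKM (log2 2.50, then 0.93 at 8.5 days). Unc45b and Smyd1, which serve HSP90 in myosin folding and sarcomere assembly, were lower at 2.5 days by 1.22 and 0.91 on the log2 scale, while Ahsa1 was not called (-0.24). The third lower gene was Unc45a, named after its value was seen.

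Among the 7 small heat shock proteins tested, Hspb6 (HSP20) had the largest difference with OSKM and was no member of the set above. It was at 224 and 227 FPKM in Cre+ and 528 and 608 FPKM in Cre- EDL at 2.5 days (log2 -1.66, SE 0.22, adjusted p = 0.000197) and lower by 1.51 at 8.5 days. At 2.5 days Hspb1 was the other lower gene, and at 8.5 days 2 were higher, Hspb3 (0.61) and Hspb8 (0.65), named after their values were seen. Hspb6 was also lower in EDL than in SOL of Cre- mice, by 1.47 on the log2 scale.

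Of the 11 HSP70 and HSP110 genes, Hspa12b, a distant HSP70 relative known from endothelium, was at 47.9 and 68.8 FPKM in Cre+ and 10.5 and 11.6 FPKM in Cre- EDL at 2.5 days (log2 2.07, SE 0.31, then 1.86 at 8.5 days). Of 8 endothelial markers 4 were lower in the same comparison at 2.5 days and 0 were higher, and their part was not tested. Hspa2 was lower at 2.5 days (-0.91, named after its value was seen). The constitutive Hspa8 was the most abundant of the family, at 543 and 668 FPKM in Cre+ and 279 and 345 FPKM in Cre- EDL, with a log2 difference of 0.62 (adjusted p = 0.0763) and no call, and Hspa4 and Hspa1l were not called.

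Of the 11 DnaJ proteins tested, Dnajb5 was at 35.7 and 45.5 FPKM in Cre+ and 112 and 117 FPKM in Cre- EDL at 2.5 days (log2 -1.82, SE 0.17, adjusted p = 1.93e-05) and lower by 1.15 at 8.5 days. Dnaja4 was lower at 2.5 days (-0.56) and Dnaja2 at 8.5 days (-0.54), and 0 were higher at either time. Hsf2, a second heat shock factor, was lower at both times (-0.98 and -0.84), from 12.7 and 12.9 FPKM in Cre- to 7.42 and 8.93 FPKM in Cre+ EDL at 2.5 days. Hsf4 was higher at 8.5 days (1.01, named after its value was seen), and the abundant Hsbp1, an inhibitor of Hsf1, was not called (-0.05 and 0.08).

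The cytosolic chaperonin TRiC and prefoldin had 3 higher genes of 15 at 2.5 days and 2 at 8.5 days and 0 lower, with Cct2 called at both times (0.96 and 0.58), Tcp1 at 8.5 days (0.56), and Cct5 and Pfdn5 at neither. Mitochondrial chaperones and proteases had 0 called genes of 11 at 2.5 days by edgeR (4 at an unadjusted p under 0.05, 0 by DESeq2) and 2 lower at 8.5 days, Hspa9 (-0.57) and Clpx (-0.54, named after its value was seen), while Hspd1 and Trap1 were not called. The HSP70 exchange factors and co-chaperones had 0 called of 9 by edgeR or DESeq2 at either time, Bag1 and Stub1 included, with 3 genes at an unadjusted p under 0.05 at 2.5 days and 0 at 8.5 days.

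**Figure D5:**
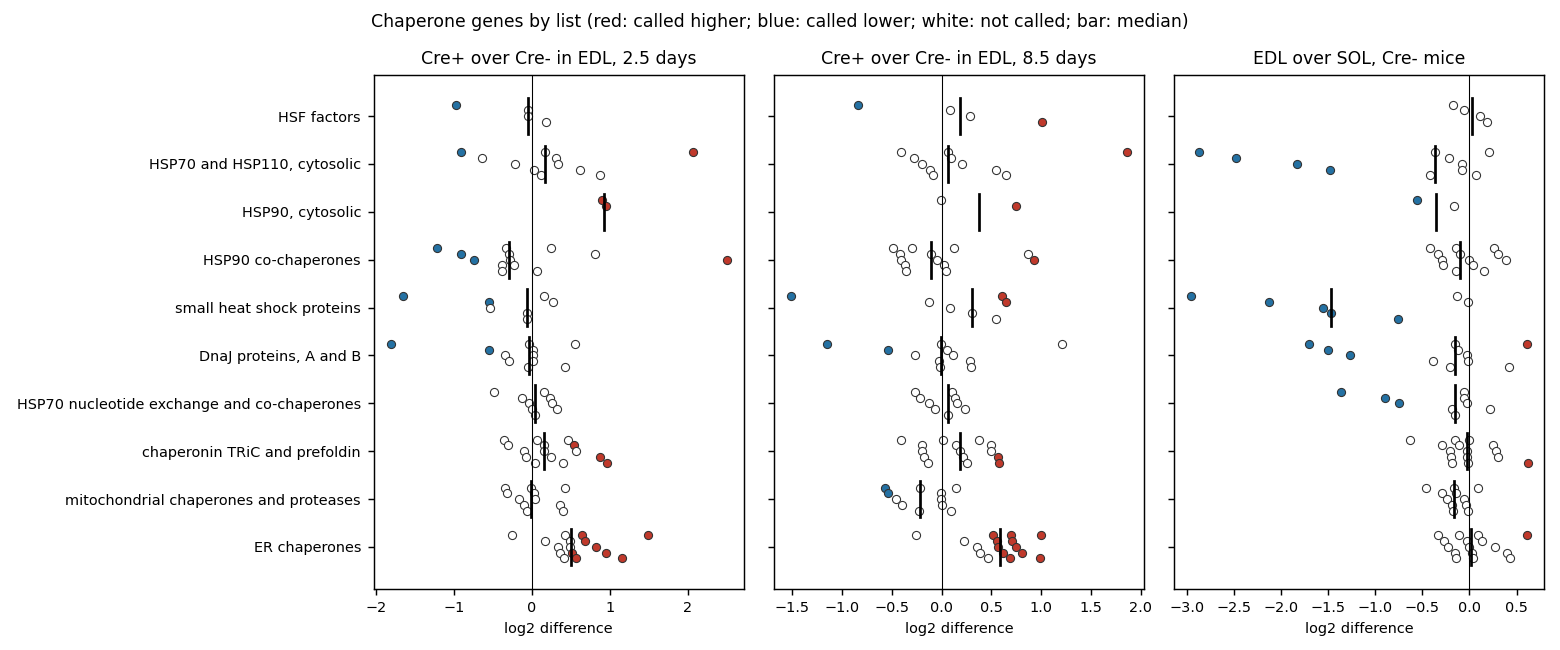
Log2 difference of each tested gene of the 10 chaperone lists for Cre+ over Cre- EDL muscles at 2.5 and 8.5 days and for EDL over SOL muscles of Cre- mice (red, called higher; blue, called lower; white, not called; bar, median of the list; a gene can be in 1 list only). Endoplasmic reticulum chaperones lie mostly right of 0 with OSKM (medians 0.50 and 0.59), and the small heat shock proteins lie left of 0 between the muscles (median -1.47).

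Between the muscles of Cre- mice 3 of the 99 genes tested were called higher and 16 lower in EDL. These were 3.03% and 16.2%, beside 11.6% and 13.3% of all genes, so that the share of lower genes was near that of all genes. The lower genes were 5 of 7 small heat shock proteins, 4 of 11 HSP70 and HSP110 genes, 3 of 11 DnaJ proteins, 3 of 9 exchange factors and co-chaperones, and Hsp90ab1. Beside members of the set, these were Hspb6, Hspa1l (-1.48), Dnaja4 (-1.27) and Hsp90ab1 (-0.56), and, named after their values were seen, Hspb2 (-0.76), Hspa2 (-1.83), Dnajb3 (-1.51), Dnajb4 (-1.70), Bag2 (-0.90) and St13 (-0.74). Hspb2 lies head to head with Cryab, with 616 bases between them, and Hspa1l with Hspa1a, with 546 bases between them. Of the other lists, 0 of 11 mitochondrial genes and 0 of 13 HSP90 co-chaperones were called by edgeR or DESeq2 (5 and 8 had an unadjusted p under 0.05), and of 16 endoplasmic reticulum chaperones 1 was higher. The 3 higher genes were Dnaja2 (0.61) and, named after their values were seen, Vbp1 (0.62) and Dnajb9 (0.62).

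Across all 24 libraries the genes most like each member were listed by the Pearson correlation of log2(FPKM + 1) over 11361 genes with a mean of at least 1 FPKM. These correlations hold the muscle difference, and no p-value is attached. Hspb7 was most like Myoz2 (0.99), Myl3 and Ankrd2, which are genes of slow and stretched muscle. Cryab was most like Twf2 (0.97), Mhrt and Astn2, and Hspb1 was most like Galns (0.97), Sbk3 and Dhrs4. Bag3 was most like Phyhd1 (0.98), Acss2 and P2rx5, and after Hspa1b the genes most like Hspa1a were P2rx5 (0.97) and Pcp4l1. Of the members that overlapped between the muscles, Hsp90aa1 was most like Pafah1b2 (0.90), Slc7a1 and Eif4a1, Hsph1 most like Elf3 (0.89), Dnajb1 most like Ctnnd1 (0.87) and Hsf1 most like Bag6 (0.87), itself a chaperone gene. These ranks depend on the libraries and the pseudocount. Over the 16 libraries of 2.5 and 8.5 days the gene most like Cryab was Prkaca, that of Hspb1 Gpt, that of Bag3 Flot1, that of Hsp90aa1 Ncbp2, that of Dnajb1 Ret and that of Hsf1 Fiz1, while Myoz2 and Elf3 stayed closest to Hspb7 and Hsph1. With a pseudocount of 5 Tnfrsf23 was closest to Hsph1 and Sbk3 to Hspb1.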

How the data were processed

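Poly(A) RNA of EDL and SOL muscles was sequenced as stranded single-end reads, 24 libraries in 12 groups of 2. The authors aligned reads to mm10 with STAR 2.5.3a and counted those aligned uniquely to RefSeq exons with HOMER. The deposited table holds these raw counts, not normalized. Whether counting used the strand is not given in the sources used here, and 0 members overlap another listed gene. From the counts, FPKM was computed with the total count of each library, and differences were tested in R 4.3.3 with edgeR 4.0.16 (quasi-likelihood test, TMM, minimum count 10, Benjamini-Hochberg over all genes), in place of the study's pairwise DESeq2 (1.42.0 here), which was an alternative. One fit took the 16 libraries of 2.5 and 8.5 days (15372 genes), and another took all 24 (15478 genes) for 5.5 days and Cre- muscles. The fit was also run on simulated counts with known changes, drawn with the same mean profile for both muscles and the same spread for all genes. That run checked the code and does not bear on the calls given here.

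Members and lists were chosen with earlier results of these data known. Named genes are the members, the top 3 genes of each list by mean FPKM, up to 4 per list called in EDL at both 2.5 and 8.5 days, and the 3 genes most like each member. With 2 libraries a group precision is limited. The p-values judge a difference against a spread between libraries that is estimated over all groups of a fit, with information shared across genes. A count of 0 allows up to 3 counts, between 0.0549 and 0.0831 CPM, for counting error only. Replicates differed by more than counting error. EDL and SOL libraries of one number deviated together in all 6 pairs (r from 0.17 to 0.44), which comes from the data and not the labels; Cre+ and Cre- libraries did not (r from -0.17 to 0.06). Alternatives were scaling, count filter, DESeq2, libraries in the fit, threshold, replicate block and leaving out each library. Sequences are from RefSeq, GRCm38.p6.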

Additional observations from a re-analysis of the deposited data

Results flagged for a closer look

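In groups of 4 to 6 libraries of one muscle and genotype, 3 members had a library far from the rest, of 40 sets tested, where chance gives about 1 in 20. In Cre- EDL muscles the second library of 8.5 days had the highest Hspa1b, 1.29 FPKM against 0.406 to 0.730 in the other 5. In Cre- SOL muscles the second library of 8.5 days had the highest Hsph1, 20.9 FPKM against 11.9 to 14.8. In Cre- EDL muscles the first library of 8.5 days had the lowest Bag3, 34.7 FPKM against 45.7 to 51.1. All 3 are libraries of Cre- mice at 8.5 days, and the muscle difference without all Cre- libraries of that time is given above.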

How the results depend on the processing

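Of 2110 values of the 10 genes recomputed under another setting, 2079 stayed on their side of the threshold, 14 lost a call, 17 gained one, and 0 called values changed sign (87 uncalled values did). The muscle difference of Cre- mice kept 6 called members under every alternative run. In EDL at 2.5 days, where 2 members were called, DESeq2 size factors in edgeR gave 1, a threshold of 1 on the log2 scale 0, DESeq2 on the 4 libraries 1, and leaving out a library 0 to 3. In EDL at 8.5 days, where 0 were called, scaling by library size alone gave 2, DESeq2 on the same libraries 1, DESeq2 on the 4 libraries 1, and leaving out a library 0 to 1. In SOL at 2.5 days (0) DESeq2 gave 1 with all 16 libraries and 3 with the 4 compared. The difference of the EDL and SOL changes at 2.5 days (0) had 1 call with the replicate block and 1 by DESeq2. Leaving out a library gave 0 to 1 called members for the days in Cre- SOL and 0 to 1 in Cre- EDL. For Cre+ over Cre- the number pairs no libraries; with that block in EDL at 2.5 days Hspa1b was called (0.89, adjusted p = 0.0399) and Hspb1 was not (-0.57, adjusted p = 0.0539). The block changed no other call of a member. The comparison of the muscles without the 8.5-day Cre- libraries was chosen after seeing the data. The causes of these changes were not tested. Most comparisons had 0 called members, and a value that stayed uncalled counts among the 2079. The lost calls were those of Hsp90aa1 and Hspb1 in EDL at 2.5 days and of Cryab between the days in Cre- SOL. The tests between the days have no sign that could change. A library left alone in its group is assumed to vary like the others. Low counts of Hspa1a and Hspa1b in EDL limit their precision.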
